A study of Mus musculus with 4 samples.

Results

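Histone genes were examined in embryonic fibroblasts of the mouse (primary cells cultured from dissociated embryos), with RNA measured on 4 arrays of the type Affymetrix Mouse Genome 430 2.0. They were chosen by name: every gene with a probe set of its own whose symbol marks a core histone, a linker histone or a histone variant, represented by the probe set with the highest mean signal over the arrays. This gave 18 of the 18193 genes named on the arrays. The groups were cells labelled Wip1-/-, 4 h after 5 Gy of gamma radiation; cells labelled Wip1-/- before irradiation; Wip1+/+ cells 4 h after 5 Gy; and Wip1+/+ cells before irradiation. Each group was 1 array. The design text names p53 target genes as the purpose, and the labels do not give the deleted part of the gene, the number of embryos or the number of cultures. No unirradiated cells were taken at 4 h, so radiation and 4 h of culture cannot be told apart.

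Histones package DNA. Pairs of H2A, H2B, H3 and H4 form the nucleosome core and H1 binds the linker DNA between nucleosomes. Most core histone genes and several H1 genes lie in clusters and are transcribed mainly in S phase. Their mRNAs end in a stem loop in place of a poly(A) tail. Replacement variants such as H2A.Z, H3.3 and H1.10 are made throughout the cell cycle from polyadenylated mRNA. The tail of H2A.X, another variant, is phosphorylated by ATM-family kinases around DNA breaks. Wip1, the phosphatase encoded by Ppm1d, is known to remove that phosphate. The arrays measure mRNA and carry no information on this mark.

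Of the 18 genes, 7 were clustered core genes (H2ac19, H2bc18, H2bc21, H2bc22, H3c11, H3c4 and H3c7), 2 were clustered linker genes (H1f2 and H1f4), 6 were replacement variants (H2ax, H2az1, H2az2, H3f3a, H3f3b and H1f10) and 3 were germ line linker variants (H1f6, H1f7 and H1f8). No H4 gene had a probe set of its own. A further 24 probe sets list several symbols with a histone among them, and they cover 42 histone symbols that have no probe set of their own. Clustered genes of the same family encode similar mRNAs, so these shared probe sets cannot be given to 1 gene and are described by family.

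The promoters of 4 genes are shown because the widest ratios among the core genes were those of H2bc22 and H2bc18, and because H1f2 and H1f10 are the clustered and the replacement linker gene that were detected. The letters run 5′ to 3′ on the strand of the gene and end at the base before its start in RefSeq, assembly GRCm38.p6. They lie at chr13:21787238-21787482 (plus strand, 245 bases), chr3:96269450-96269699 (plus strand, 250 bases), chr13:23738557-23738806 (plus strand, 250 bases) and chr6:87981483-87981732 (minus strand, 250 bases). Capitals mark exact matches, on either strand, to the octamer ATTTGCAT known from H2B promoters, the TATA motif TATAAA, the CCAAT motif, the AAACACA motif known from H1 promoters and the GC box GGGCGG.
H2bc22: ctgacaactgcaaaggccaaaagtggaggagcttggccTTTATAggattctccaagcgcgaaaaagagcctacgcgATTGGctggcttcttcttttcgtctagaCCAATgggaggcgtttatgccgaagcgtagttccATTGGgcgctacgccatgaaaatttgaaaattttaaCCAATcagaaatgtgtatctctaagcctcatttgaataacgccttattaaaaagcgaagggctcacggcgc
H2bc18: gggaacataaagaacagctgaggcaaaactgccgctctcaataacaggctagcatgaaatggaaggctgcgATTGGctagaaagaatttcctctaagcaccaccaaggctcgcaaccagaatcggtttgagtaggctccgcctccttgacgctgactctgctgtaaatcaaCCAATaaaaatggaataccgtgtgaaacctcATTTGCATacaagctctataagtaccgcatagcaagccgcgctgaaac
H1f2: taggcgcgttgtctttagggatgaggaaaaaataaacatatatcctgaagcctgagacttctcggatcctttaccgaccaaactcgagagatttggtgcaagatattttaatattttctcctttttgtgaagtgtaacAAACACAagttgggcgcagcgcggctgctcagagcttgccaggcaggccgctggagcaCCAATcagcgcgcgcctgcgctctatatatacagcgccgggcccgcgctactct
H1f10: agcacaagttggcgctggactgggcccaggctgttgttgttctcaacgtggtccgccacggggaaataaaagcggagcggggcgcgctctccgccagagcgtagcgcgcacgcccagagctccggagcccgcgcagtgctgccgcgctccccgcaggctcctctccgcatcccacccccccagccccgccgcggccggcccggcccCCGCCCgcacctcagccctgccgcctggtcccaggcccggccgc

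H2bc18 held the octamer 48 bases before its start, and H2bc22 held no exact match to it in this window. H2bc22 held CCAAT at 4 places, counting both strands, and H2bc18 at 2. H1f2 held AAACACA 112 bases and CCAAT 54 bases before its start, while H1f10 held 1 GC box and neither of these. In the first 250 bases of all 32851 RefSeq promoter windows, 1.60% held the octamer, 12.4% TATAAA, 33.8% CCAAT, 6.25% AAACACA and 32.7% GGGCGG. A match is a description of the letters and does not show a bound factor.

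Arrays were compared as they stand, with no test, because each group was 1 array. A gene entered if its mean signal was at least 67.95, and signals under 46.5 were set to that floor. Of the 18 histone genes, 12 entered, beside 11546 of all 18193 genes. A difference was counted from 2-fold. Probe sets for one gene gave the only measure of error: their log2 ratios had a pooled SD of 0.62 for irradiation on the arrays labelled Wip1-/-, 0.37 for irradiation of Wip1+/+ cells, 0.41 for the genotype comparison after irradiation and 0.65 for that before it. It does not cover differences between cultures. The unirradiated array labelled Wip1-/- stood apart: over 18 spike-in controls the SD of the log2 ratio was 0.44 to 0.47 in pairs with it and 0.07 to 0.10 in pairs without it. Ppm1d did not separate the genotype labels by both of its probe sets, with 482 and 504 on the irradiated and unirradiated arrays labelled Wip1-/- against 364 and 375 on the Wip1+/+ arrays by its first probe set, and 561 and 219 against 463 and 317 by the other, which was lower on the array labelled Wip1-/- before irradiation and higher after it. The genotype is therefore given as the label states it. All 10 fibroblast markers were above the floor on every array.

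**Figure D1:**
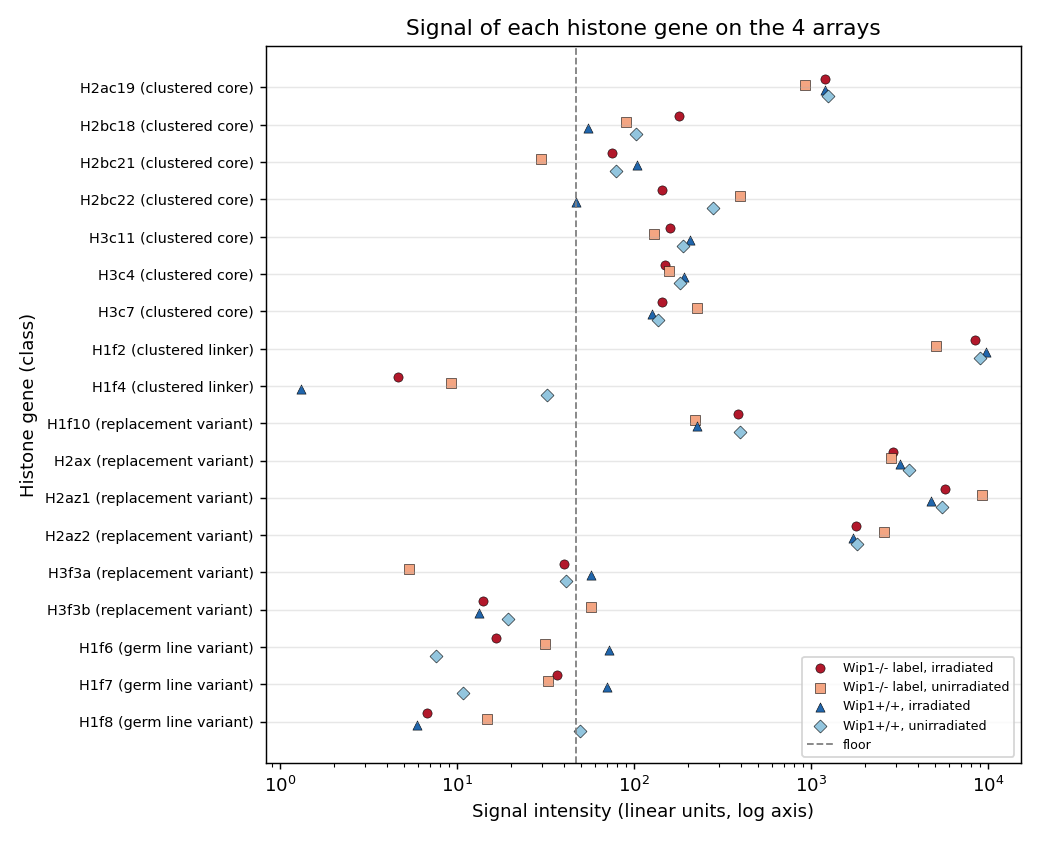
Signal intensity (linear units on a log axis) of each of the 18 histone genes on the irradiated and unirradiated arrays labelled Wip1-/- and on the irradiated and unirradiated Wip1+/+ arrays, 1 point per array, with the floor of 46.5 dashed. H2bc22 spans 47.0 to 396 while H2ax spans 2818 to 3543, and signals can be compared along a row but not between rows.

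After irradiation of Wip1+/+ cells, the clustered H2B gene H2bc22 was the 1 histone gene of 12 that was lower by 2-fold or more, and 0 were higher by that much. Over all genes 1.50% were lower and 1.58% higher to that extent. H2bc22, which encodes a core H2B protein, read 143 on the irradiated and 396 on the unirradiated array labelled Wip1-/-, and 47.0 on the irradiated and 277 on the unirradiated Wip1+/+ array. It was lower on the irradiated array of each genotype, 2.78-fold in cells labelled Wip1-/- and 5.90-fold in Wip1+/+ cells. The Wip1+/+ irradiated signal lies just over the floor. H2bc22 rests on 1 probe set, of the kind whose name ends in _x_at, which can bind related transcripts. A shared H2B probe set that lists 11 symbols and was designed from the same sequence record read 13464 on the irradiated and 20723 on the unirradiated array labelled Wip1-/-, and 13766 on the irradiated and 14027 on the unirradiated Wip1+/+ array. By that probe set the irradiation log2 ratio was -0.62 in cells labelled Wip1-/- and -0.03 in Wip1+/+ cells, so the bright shared H2B signal did not show the size of the H2bc22 difference.

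The other H2B genes did not follow H2bc22. H2bc18 read 179 on the irradiated and 89.2 on the unirradiated array labelled Wip1-/-, against 55.0 on the irradiated and 102 on the unirradiated Wip1+/+ array. Irradiated cells labelled Wip1-/- were high and irradiated Wip1+/+ cells low, with irradiation log2 ratios of 1.01 and -0.89. H2bc21 read 74.6 and 29.6 on the irradiated and unirradiated arrays labelled Wip1-/-, against 103 and 78.5 on the Wip1+/+ arrays. The lowest of these is under the floor, so irradiated cells labelled Wip1-/- were at least 1.60-fold higher than unirradiated ones, and Wip1+/+ cells were 1.32-fold higher. The dimmer probe set of H2bc21 had log2 ratios of -0.53 and 1.20 in these comparisons, with signals of 14.5 and 67.1 against 107 and 31.9, so its 2 probe sets disagree in cells labelled Wip1-/-. The lower signal of each pair is under the floor, so these ratios are bounds.

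H2A and H3 cluster genes differed little after irradiation. H2ac19, a core H2A gene with a near-identical neighbour, read 1190 and 926 on the irradiated and unirradiated arrays labelled Wip1-/-, against 1193 and 1245 on the Wip1+/+ arrays. Its irradiation log2 ratio was 0.36 in cells labelled Wip1-/- and -0.06 in Wip1+/+ cells, and -0.24 and 0.10 by its other probe set, so the direction turned between probe sets in each genotype. H3c11 read 159 and 129 on the irradiated and unirradiated arrays labelled Wip1-/-, against 206 and 188 on the Wip1+/+ arrays. H3c4 read 148 and 156, against 190 and 181. H3c7 read 143 and 227, against 125 and 136. The largest irradiation log2 ratio of these 3 H3 genes was -0.66, that of H3c7 in cells labelled Wip1-/-, and the unirradiated array labelled Wip1-/- was the high one.

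Over the 7 clustered core genes the median irradiation log2 ratio was 0.30 in cells labelled Wip1-/- and -0.06 in Wip1+/+ cells, beside -0.03 and 0.01 over all genes tested. In cells labelled Wip1-/- 1 of the 12 histone genes was higher by 2-fold or more (H2bc18) and 1 lower by as much (H2bc22), where 5.70% of all genes were higher and 4.63% lower. The median for cells labelled Wip1-/- was -0.08 when probe sets ending in _x_at or _s_at were left out. That for Wip1+/+ cells lay between -0.08 and 0.11 over the settings tried, so it has no settled sign.

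**Figure D2:**
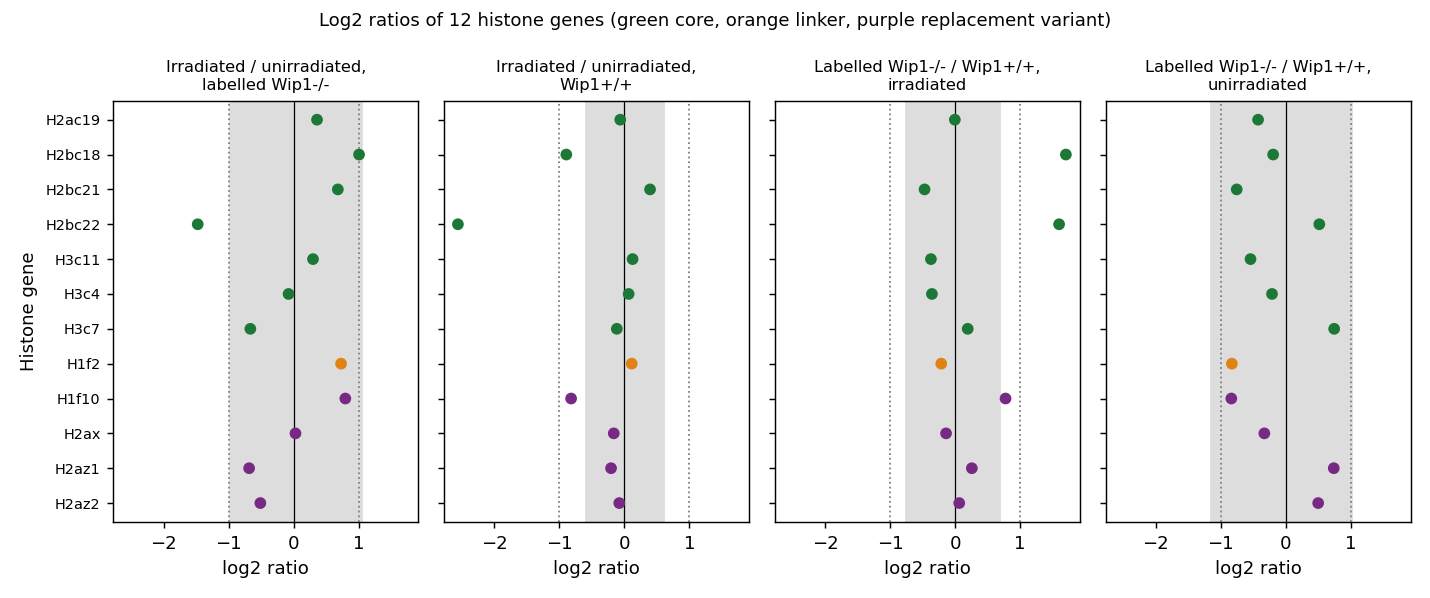
Log2 ratios (horizontal axis) of the 12 histone genes that entered, for irradiation of cells labelled Wip1-/-, irradiation of Wip1+/+ cells, and the genotype comparison after and before irradiation; grey spans the 5th to 95th percentile of all genes, and dotted lines mark 2-fold. H2bc22 lies at -1.48 and -2.56 in the irradiation panels and H2bc18 at 1.01 and -0.89.

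Among linker histones, H1f10 went opposite ways with irradiation. H1f10, which encodes the replacement linker H1.10, read 385 on the irradiated and 221 on the unirradiated array labelled Wip1-/-, against 225 on the irradiated and 396 on the unirradiated Wip1+/+ array. Irradiated cells labelled Wip1-/- and unirradiated Wip1+/+ cells were the high pair. The irradiation log2 ratio was 0.80 in cells labelled Wip1-/- and -0.82 in Wip1+/+ cells, a difference of 1.62, and it rests on 1 probe set. Those values were under 2-fold in each genotype. Over all genes tested, 46.3% had irradiation ratios of opposite sign in the genotypes, and 5 of the 12 histone genes did.

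H1f2, the clustered linker H1.2, read 8399 on the irradiated and 5059 on the unirradiated array labelled Wip1-/-, against 9730 on the irradiated and 8991 on the unirradiated Wip1+/+ array. The unirradiated array labelled Wip1-/- was low and the other 3 lay close together. Its next probe set read 3708 and 3762 on the irradiated and unirradiated arrays labelled Wip1-/-, against 3745 and 2984 on the Wip1+/+ arrays, and there the low array was that of unirradiated Wip1+/+ cells. In the comparison of unirradiated cells labelled Wip1-/- with Wip1+/+ cells, the 3 probe sets of H1f2 had log2 ratios of -0.83, 0.33 and 0.38. The direction for H1f2 therefore depends on the probe set.

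Replacement variants of H2A showed no 2-fold difference. H2ax, the variant phosphorylated at breaks, read 2877 and 2818 on the irradiated and unirradiated arrays labelled Wip1-/-, against 3166 and 3543 on the Wip1+/+ arrays. H2ax was lower on the arrays labelled Wip1-/-, by 1.10-fold after irradiation and 1.26-fold before it, less than the SD between probe sets. The irradiation log2 ratio of H2ax was 0.03 in cells labelled Wip1-/-, which turned to -0.05 under scaling on the median of bright probe sets, and -0.16 in Wip1+/+ cells.

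H2az1, the main gene for H2A.Z, a variant found at promoters, read 5698 and 9152 on the irradiated and unirradiated arrays labelled Wip1-/-, against 4764 and 5487 on the Wip1+/+ arrays. The unirradiated array labelled Wip1-/- was high, 1.67-fold over unirradiated Wip1+/+ cells. The other probe set of H2az1 read 5273 and 4814, against 4524 and 4405, and its log2 ratio in that comparison was 0.13. Its irradiation log2 ratio in cells labelled Wip1-/- was -0.68 by the brighter probe set and 0.13 by the other. H2az2, the second H2A.Z gene, read 1798 and 2562 on the irradiated and unirradiated arrays labelled Wip1-/-, against 1720 and 1814 on the Wip1+/+ arrays. The same array was high, and the dimmer probe set of H2az2 had a log2 ratio of -0.38 between unirradiated cells labelled Wip1-/- and Wip1+/+ cells, against 0.50 by the brighter one.

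**Figure D3:**
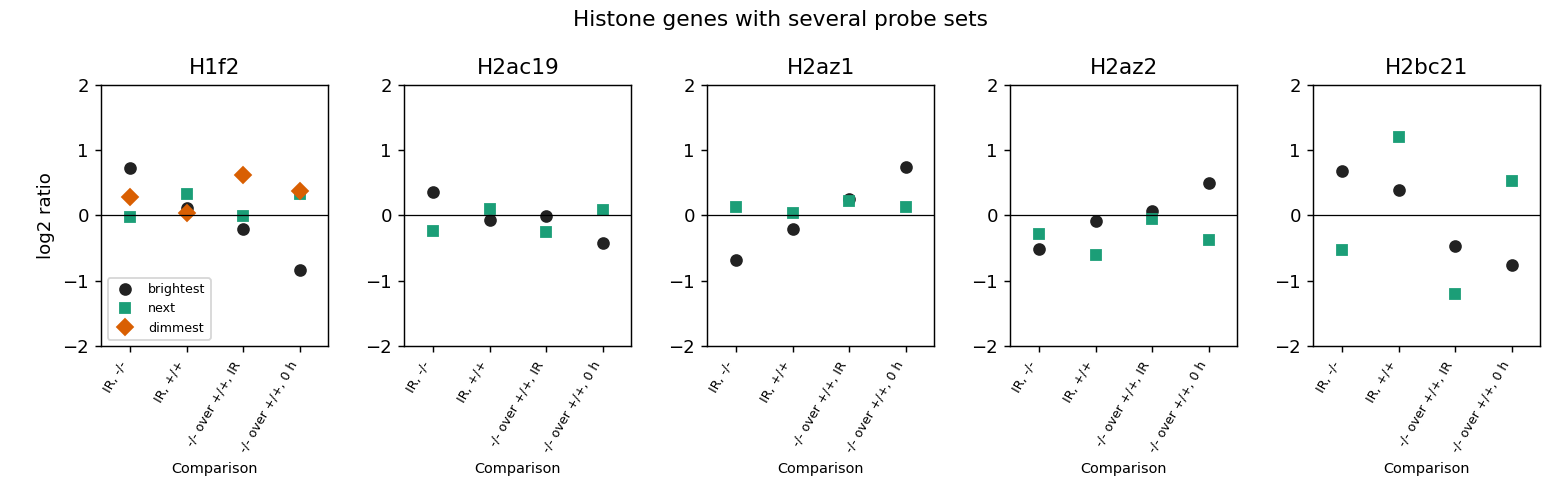
Log2 ratios (vertical axis) of every probe set of the 5 histone genes that entered with more than 1 probe set, for irradiation in each genotype label (IR) and for Wip1-/- label over Wip1+/+ after and before irradiation; colours separate the brightest, next and dimmest probe set. Between unirradiated genotypes, the probe sets of H1f2 lie at -0.83, 0.33 and 0.38 and those of H2az1 at 0.74 and 0.13.

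The 6 genes that did not enter were near or under the floor. H1f4, a clustered linker, was under the floor on all 4 arrays, with a highest signal of 32.2. H1f6, H1f7 and H1f8, linker variants of sperm and egg cells, were each above it on 1 array, with highest signals of 72.3, 70.0 and 49.3. H3f3a and H3f3b, which encode the same H3.3 protein, had highest signals of 56.8 and 56.5 by their own probe sets, and each was above the floor on 1 array.

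The comparison of genotypes after irradiation does not use the array that stood apart. H2bc18 was 3.26-fold and H2bc22 3.03-fold higher on the irradiated array labelled Wip1-/- than on that of Wip1+/+. These were 2 of the 12 histone genes, and 0 were at least 2-fold lower; over all genes 2.35% were higher and 2.94% lower. Both are dim clustered H2B genes with 1 probe set each, and the irradiated Wip1+/+ signals were 55.0 and 47.0. Against the mean of both Wip1+/+ arrays, 1 histone gene was past 2-fold: H2bc18, with a log2 ratio of 1.26, while H2bc22 had 0.32. Over the irradiated Wip1+/+ array alone, H1f10 came next, with a log2 ratio of 0.78, while H2bc21 had -0.47, H3c11 -0.37 and H3c4 -0.36. Against the mean of both Wip1+/+ arrays H1f10 had 0.37. The 7 core genes had a median log2 ratio of 0.00 beside 0.00 over all genes, and the 4 replacement variants 0.16. Over the settings tried the core median lay between -0.26 and 0.02 and that of the replacement variants between 0.03 and 0.17.

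Before irradiation 0 of the 12 histone genes differed 2-fold between the genotype labels, where 5.14% of all genes were higher and 6.82% lower on the array labelled Wip1-/-. The widest log2 ratios were -0.84 for H1f10, -0.83 for H1f2, -0.76 or below for H2bc21, 0.74 for H2az1 and 0.74 for H3c7, the last a core H3 gene. The median over the core genes was -0.21 and over the replacement variants 0.08, beside 0.05 over all genes. The replacement variant median lay between -0.14 and 0.26 over the settings tried. The spike-in controls differed most in pairs with this unirradiated array, and their part in these ratios was not tested. Of the 12 genes, 4 were higher and 6 lower in both genotype comparisons, which share no array, and 2 changed sign, while 43.6% of all genes did.

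How well the labelling captured mRNAs without a poly(A) tail was not tested. The brightest core histone signals came from shared probe sets, though others of these were dim, and 20 of 24 entered. By family they were 4 of H2A, 3 of H2B, 9 of H3 and 4 of H4. The 20 include probe sets that list the replacement variants H3.3 and H2A.Z, so they are not core genes alone. Over all 20 the median irradiation log2 ratio was -0.04 in cells labelled Wip1-/- and 0.05 in Wip1+/+ cells. At least 2-fold in an irradiation comparison was 1 of the 20 in each genotype, where 12.1% of all probe sets in cells labelled Wip1-/- and 3.81% in Wip1+/+ cells were that far apart in either direction. Between genotypes 1 was that far apart after irradiation and 2 before it, where 5.80% and 13.9% of all probe sets were.

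Of the 9 shared H3 probe sets that entered, 0 differed 2-fold after irradiation in either genotype, and 4 of them list clustered H3 genes alone. A probe set listing 8 H3 symbols read 752 on the irradiated and 515 on the unirradiated array labelled Wip1-/-, and 847 on the irradiated and 543 on the unirradiated Wip1+/+ array. A second with 8 symbols read 896 and 600 on the irradiated and unirradiated arrays labelled Wip1-/-, against 1011 and 711 on the Wip1+/+ arrays. The irradiated array was the higher one in each genotype, by 1.46- and 1.49-fold in cells labelled Wip1-/- and by 1.56- and 1.42-fold in Wip1+/+ cells. Of 2 further H3 probe sets, which list 12 symbols, the brighter had log2 ratios of 0.17 and 0.11 and the dimmer 0.49 and 0.13 in cells labelled Wip1-/- and in Wip1+/+ cells. These 4 probe sets list overlapping genes, so they are not independent of each other. The clustered H3 genes with a probe set of their own did not all go the same way: H3c7 had irradiation log2 ratios of -0.66 in cells labelled Wip1-/- and -0.12 in Wip1+/+ cells, and H3c4 had -0.08 and 0.07.

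H4 was measured by shared probe sets only, and they disagreed although each lists the same number of symbols, 13. One read 383 and 219 on the irradiated and unirradiated arrays labelled Wip1-/-, against 452 and 260 on the Wip1+/+ arrays. It was 1.75-fold higher after irradiation in cells labelled Wip1-/- and 1.74-fold higher in Wip1+/+ cells. Another read 127 and 189, against 234 and 340, and was 1.49-fold lower in cells labelled Wip1-/- and 1.46-fold lower in Wip1+/+ cells. The brightest H4 probe set read 1013 and 1579, against 1542 and 1182, and had irradiation log2 ratios of -0.64 and 0.38. In the genotype comparison after irradiation all 4 were lower on the array labelled Wip1-/-, with log2 ratios of -0.24 to -0.88. Over all genes tested, 5848 of 11546 were lower there. Each of the 4 lists 13 symbols and may read the same genes, so they are not taken as independent of each other.

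The H2A probe set that lists 10 symbols was high on both arrays labelled Wip1-/-. It read 10454 on the irradiated and 11732 on the unirradiated array labelled Wip1-/-, against 5192 on the irradiated and 7406 on the unirradiated Wip1+/+ array. The difference between genotype labels was 2.01-fold after irradiation, close to the 2-fold line, and 1.58-fold before it. After irradiation 5.80% of all probe sets were at least 2-fold apart in either direction. Of the bright H2B probe sets, that of 11 symbols had a log2 ratio of -0.03 after irradiation and 0.56 before it, and one of 3 symbols -0.16 and 0.10.

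H3.3 and H2A.Z were also read by bright probe sets that list predicted genes beside the variant. The 5 for H3.3 list 6 symbols each, and the one with the highest mean read 20259 and 31365 on the irradiated and unirradiated arrays labelled Wip1-/-, against 16525 and 18235 on the Wip1+/+ arrays. Their irradiation log2 ratios lay between -0.63 and 0.24 in cells labelled Wip1-/- and between -0.16 and 0.05 in Wip1+/+ cells. So H3.3 signal was bright even though the probe sets assigned to H3f3a and H3f3b alone were not. The brighter H2A.Z one read 18385 and 17962, against 16518 and 18405, with 1.11-fold as its widest ratio in the 4 comparisons.

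**Figure D4:**
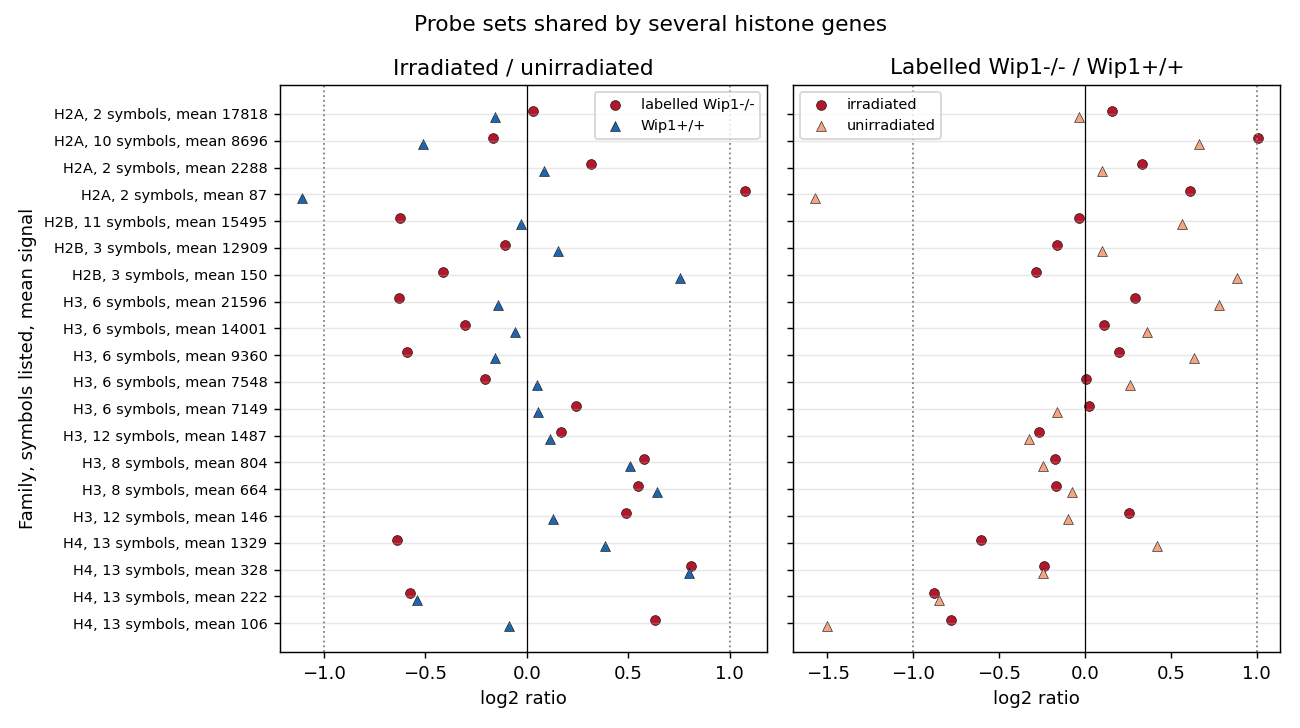
Log2 ratios of the 20 probe sets that list several symbols with a histone among them and entered, by family, with irradiated over unirradiated on the left (labelled Wip1-/- and Wip1+/+) and Wip1-/- label over Wip1+/+ on the right (irradiated and unirradiated); dotted lines mark 2-fold. The H3 probe sets with 8 symbols lie at 0.51 to 0.64 in the irradiation panel, and the H2A probe set with 10 symbols at 1.01 and 0.66 in the genotype panel.

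Genes that act on histones were taken from lists made from textbook knowledge. Of 18 measured factors of histone mRNA processing and cluster transcription, 0 differed 2-fold after irradiation of Wip1+/+ cells and 0 between irradiated genotypes. Over all genes, 1.58% were higher and 1.50% lower in the first comparison, and 2.35% and 2.94% in the second. The median irradiation log2 ratio of the 18 factors was 0.04 in cells labelled Wip1-/- and 0.07 in Wip1+/+ cells. Slbp, which binds the stem loop of histone mRNA, read 2082 and 3721 on the irradiated and unirradiated arrays labelled Wip1-/-, against 2310 and 2242 on the Wip1+/+ arrays. Casp8ap2, the FLASH protein of histone mRNA processing, was 2.35-fold higher on the unirradiated array labelled Wip1-/- than on that of Wip1+/+, with 1115 and 475. Sympk, a scaffold of 3′ end processing, and Ccne1, a cyclin of S phase entry, were lower there, with log2 ratios of -1.10 and -1.03. These were 1 higher and 2 lower of the 18 in that comparison, beside 5.14% and 6.82% of all genes. Sympk was also 2.65-fold higher after irradiation of cells labelled Wip1-/-, by its bright probe set, and had a log2 ratio of -1.17 or below by its dim one. It was the 1 factor of 18 counted higher there, and 0 were lower, beside 5.70% and 4.63% of all genes. The other probe set of Ccne1 had -0.43 before irradiation.

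Among 22 measured histone chaperones and deposition factors, Supt16 stood apart by genotype label. Supt16 encodes a subunit of FACT, which moves H2A-H2B dimers in and out of nucleosomes. It read 2624 on the irradiated and 2726 on the unirradiated array labelled Wip1-/-, against 912 on the irradiated and 1037 on the unirradiated Wip1+/+ array. It was 2.88-fold higher after irradiation and 2.63-fold higher before it. Its other probe set went the same way, with 946 and 854 against 68.2 and 42.4, the last under the floor. In this genotype comparison 1 gene of the list passed 2-fold upward and 0 downward after irradiation, beside 2.35% and 2.94% of all genes. Before irradiation 2 of the 22 were higher and 3 lower, beside 5.14% and 6.82% of all genes, the second higher one being Nasp, a chaperone of H1 and H3-H4, at 2.71-fold. Npm1, Atrx and Ep400 were lower, with log2 ratios of -1.11, -1.40 and -1.13, but a second bright probe set of Npm1 had -0.09 and 6 dimmer ones of Atrx lay between -0.97 and 0.58. A second bright probe set of Ep400 had -1.01. A dimmer probe set of Ep400 went the other way, with 202 on the unirradiated array labelled Wip1-/- against 81.5 on that of Wip1+/+. Atrx and Npm1 were higher after irradiation of cells labelled Wip1-/-, by 1.67 and 1.10 on the log2 scale, but the other probe sets of Atrx lay between -0.01 and 0.65 and the second of Npm1 had -0.02. Nasp had -1.22, and 0 genes of the list were past 2-fold in Wip1+/+ cells. Over all genes, 5.70% were higher and 4.63% lower in cells labelled Wip1-/-, and 1.58% and 1.50% in Wip1+/+ cells. The list had a median irradiation log2 ratio of -0.06 in cells labelled Wip1-/- and 0.00 in Wip1+/+ cells.

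Replication genes are given because clustered histone genes are transcribed in S phase. Of 24 measured, 17 had an irradiation ratio below 1 in Wip1+/+ cells with a median log2 ratio of -0.17, and 9 in cells labelled Wip1-/- with a median of 0.08. Over all genes tested, 5470 of 11546 were below 1 in Wip1+/+ cells and 6037 in cells labelled Wip1-/-. At 2-fold, 0 of the 24 differed after irradiation of Wip1+/+ cells, where 1.58% of all genes were higher and 1.50% lower. In cells labelled Wip1-/- 5.70% of all genes were higher, and Mcm2 and Mcm3, helicase subunits, were among them, with log2 ratios of 1.24 and 1.40. The second probe set of Mcm2 had -0.21 there, and the others of Mcm3 lay between -0.36 and 0.26. Mcm2 was also higher between irradiated genotypes, at 1.22, but its second probe set had 0.03 there. Mcm3 and Mcm6 were lower before irradiation, at -1.30 and -1.18. The second probe set of Mcm6 had 0.95 there, and the others of Mcm3 -0.14 to -1.10. Over all genes, 2.35% were at least 2-fold higher between irradiated genotypes and 6.82% lower before irradiation. Among the 14 kinases, readers and phosphatases of H2A.X, Mdc1, which binds phosphorylated H2A.X, read 203 and 195 on the irradiated and unirradiated arrays labelled Wip1-/-, against 424 and 285 on the Wip1+/+ arrays. Mdc1 was the 1 of this list past 2-fold in any comparison, with a log2 ratio of -1.06 between irradiated genotypes, where 2.94% of all genes were lower. The median irradiation log2 ratio of that list was -0.08 in cells labelled Wip1-/- and -0.01 in Wip1+/+ cells.

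Macrophage markers differed with the genotype label. The summed signal of 10 macrophage markers was 2087 and 2190 on the irradiated and unirradiated arrays labelled Wip1-/-, against 8871 and 8809 on the Wip1+/+ arrays, with 1 or 2 of the 10 under the floor on each array; 9 entered, all lower on the arrays labelled Wip1-/-, with median log2 ratios of -1.53 after and -1.81 before irradiation. Over all genes tested, 5848 of 11546 were lower after irradiation and 5351 before it. Fibroblast markers summed to 224309 and 304765, against 199274 and 210037, and Lum alone of these was past 2-fold, at -1.82 before irradiation. The 5 endothelial markers summed to 372 and 421, against 500 and 506, and the 5 epithelial markers to 1194 and 1122, against 776 and 836, with 3 of each list entering. The endothelial genes that entered had median log2 ratios of 0.02 after irradiation and 0.32 before it, so their medians and the sums went opposite ways. Most of the epithelial sum was Krt18, with 842 and 818 against 572 and 552. Of the genes that entered, Kdr and Emcn had log2 ratios of 1.03 and -2.19 before irradiation. Epcam, by 1 of its 2 probe sets, had at least 2.07 after it, since its Wip1+/+ signal was under the floor. The part of other cells in the H2A and Supt16 differences was not tested. On a mixed culture, fewer cells of a type and less RNA per cell cannot be told apart.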

How the data were processed

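RNA of mouse embryonic fibroblasts was measured by the authors on 4 arrays, 1 per group. Each deposited value is the intensity of 1 probe set on 1 array, on a linear scale. The submitters' processing notes name GCOS, with no version; the sources used here do not give its background correction or scaling. The mean of every deposited column, with 2% trimmed at either end, was 500, so values were used without further scaling. Scaling to 1 target can hide a shift shared by all genes.

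Of 45101 probe sets, 64 controls were left out. The platform annotation gave 1 symbol to 34945, several to 932 and none to 9160; all 18 member symbols matched mouse RefSeq (GRCm38.p6) by gene identifier, and 0 changed. Values under 46.5 (the 40th percentile of pooled values) were set to that floor before log2. A gene was represented by its brightest probe set and entered at a mean of at least 67.95, the median of probe set means. Ratios were computed over the whole table. The script was checked on simulated data. Promoter sequences are from RefSeq, whose table held 15 of the 18 genes.

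The histone genes, lists, settings and the rule for named genes were chosen with earlier results of these data known. The rule named genes past 2-fold, every replacement variant, the 10 with the highest mean signal and the extremes of each family, and list members past 2-fold. Lists were those of histone mRNA processing, chaperones, replication, H2A.X readers, fibroblast, macrophage, endothelial and epithelial genes. Alternatives were quantile normalization, cyclic loess and scaling on the median of bright probe sets; a lower floor (25th percentile) or none; a stricter filter (67th percentile) or none; taking the median over probe sets; leaving out probe sets ending in _x_at or _s_at; adding shared probe sets; and both Wip1+/+ arrays as the comparison for irradiated cells labelled Wip1-/-. R 4.3.3 with limma 3.58.1 and Python 3.11.15 were used. How far a signal stands over background, and the number of arrays, limit the precision.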

Additional observations from a re-analysis of the deposited data

Results flagged for a closer look

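H1f10 and H2bc18 moved opposite ways with irradiation in the genotype labels. For H1f10 the log2 ratio was 0.80 in cells labelled Wip1-/- and -0.82 in Wip1+/+ cells, and for H2bc18 it was 1.01 and -0.89. With 1 array per group the difference between the genotypes was not tested, and the ratio for cells labelled Wip1-/- uses the unirradiated array that differed in its spike-in controls.

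Some probe sets shared by several histone genes, which enter none of the gene counts, differed at least 2-fold. The H2A probe set with 10 symbols had a log2 ratio of 1.01 between irradiated cells labelled Wip1-/- and irradiated Wip1+/+ cells. A dim H2A probe set with 2 symbols read 98.1 and 46.4 on the irradiated and unirradiated arrays labelled Wip1-/-, against 64.2 and 138 on the Wip1+/+ arrays; its irradiation log2 ratio was 1.08 in cells labelled Wip1-/- and -1.11 in Wip1+/+ cells, and its ratio between unirradiated genotypes was -1.57. The 46.4 is under the floor, so 2 of these are bounds. The dimmest H4 probe set that entered read 52.8 and 149 on the unirradiated arrays labelled Wip1-/- and Wip1+/+, a log2 ratio of -1.50.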

How the results depend on the processing

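No paired analysis was possible because each group holds 1 array. Leaving out a replicate was not possible for the same reason. Medians of the core genes and of the replacement variants moved by less than the SD between probe sets in the alternatives run. That SD, 0.37 to 0.65, is larger than every median reported, so it is a wide limit. Between unirradiated genotypes the core median went from -0.21 to -0.43 with the filter at the 67th percentile and stayed within it. Of the medians at least 0.1 from 0 on the log2 scale, 1 changed sign. This was the core median for irradiation of cells labelled Wip1-/-, at -0.077 without probe sets ending in _x_at or _s_at, a setting in which H2bc22 and H2bc21 no longer enter and H2ac19 has another probe set. Counts at 2-fold are small and stayed within 1.5 times of those reported in 71 of 90 alternatives. The 71 include counts of 0 that stayed 0, as for genes higher after irradiation of Wip1+/+ cells in every alternative. They therefore say little about how stable the counts above 0 are. The histone gene lower after irradiation of Wip1+/+ cells, H2bc22, left 0 with the filter at the 67th percentile and 0 without those probe sets, and the count was 2 when shared probe sets were added, by either rule. In cells labelled Wip1-/- the count of higher genes was 0 with scaling on the median of bright probe sets and with the stricter filter, and 2 with the floor at the 25th percentile, with no floor and with shared probe sets added by either rule; the count of lower genes was 0 with the stricter filter and without those probe sets. Between unirradiated genotypes 1 gene was lower with the lower floor, with no floor and with shared histone probe sets added, and 2 with every probe set that lists a histone, a setting added after the data were seen. Between irradiated genotypes the count of higher genes was 0 with the stricter filter, 1 without the probe sets named and 1 against both Wip1+/+ arrays. Scaling on the median of bright probe sets moved the median of all genes by at most 0.08 on the log2 scale.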

Other observations

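The promoter letters of histone genes differed by family in RefSeq. The octamer ATTTGCAT lay in the first 250 bases of 6 of 14 windows of clustered H2B genes and 5 of 16 of clustered H2A genes, and in 0 of 11 of H3 and 0 of 11 of H4 genes, beside 1.60% of all windows. Divergent H2A and H2B genes share parts of these windows, so they are not independent. AAACACA lay in 4 of 5 windows of clustered H1 genes, beside 6.25% of all. CCAAT lay in all 14 windows of H2B, all 16 of H2A and all 5 of H1 genes, and in 9 of 11 of H3 genes. It lay in 3 of 11 of H4 genes (27.3%), near the 33.8% of all windows. GGGCGG lay in 8 of 11 windows of H4 genes, beside 32.7% of all. H2bc22 and H2bc18, the genes with the widest irradiation ratios among the core genes, differ in the octamer, and nothing is drawn from this about a factor.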
